A study of Mus musculus with 6 samples.

Results

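Oxidative phosphorylation genes were followed in RNA of colonic lamina propria cells, the cells of the connective tissue layer beneath the gut epithelium, from mice given atorvastatin or its vehicle. The genes were taken by symbol: every protein-coding gene of the GENCODE M21 mouse annotation whose symbol begins with Ndufa, Ndufb, Ndufc, Ndufs, Ndufv, Sdh, Uqcr, Cox4 to Cox8, Atp5 or mt-. Of 55401 gene IDs in the deposited files, 111 met that rule. They comprise 98 IDs of the nuclear genome and 13 of the mitochondrial genome, and 1 of the 98 is a second ID of Atp5o that was listed at 0 in all libraries. All mice were male, carried the Apc Min/+ genotype, in which 1 allele of the tumour suppressor Apc makes a shortened protein, and were 5 to 6 weeks old. In the atorvastatin group (3 libraries) the statin was gavaged at 20 mg/kg on alternate days. In the vehicle group (3 libraries) 2% Tween 80 was gavaged instead. Whether each library stands for its own animal is not stated in the labels, so a p-value here reflects variation among libraries that could be technical.

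Oxidative phosphorylation couples the oxidation of NADH and succinate to the making of ATP at the inner mitochondrial membrane. Complex I takes electrons from NADH, complex II from succinate, complex III passes them from ubiquinol to cytochrome c, complex IV passes them to oxygen, and complex V, the ATP synthase, uses the proton gradient so formed. The mitochondrial genome encodes the hydrophobic core subunits of complexes I, III, IV and V, which are transcribed as long precursors inside the organelle, whereas all of complex II and the remaining subunits are transcribed in the nucleus. In the gut wall, B and plasma cells, macrophages and muscle differ in how much they rely on respiration and on glycolysis.

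Values were FPKM, fragments scaled to gene length and library size as the authors deposited them, with sums of 355787 to 456064 per library and 13303 to 13703 genes that reached 1 FPKM. How many fragments lie behind these values is unknown. Vehicle library 3 stood apart from the other libraries, with a mean Pearson correlation of 0.944 to them across genes, against 0.957 to 0.961 for each of the others, and differences that move by over 1.5 times when it is left out are given with and without it. Markers of several cell types were present in every library. Ptprc, the pan-leukocyte marker, had 13.9 to 19.5 FPKM with atorvastatin and 17.7 to 18.6 FPKM with vehicle. The summed level of 12 markers of colonic epithelium was 31.2 to 58.9 FPKM with atorvastatin and 47.3 to 58.6 FPKM with vehicle. None of the markers was at 0 in all libraries.

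The oxidative phosphorylation genes were on the whole slightly lower with atorvastatin, and no single gene passed the test. Differences were taken on the log2(FPKM + 1) scale, atorvastatin minus vehicle, and were tested with limma over all 13590 genes that had at least 1 FPKM in at least 3 libraries. That filter was passed by 105 members, 92 nuclear and 13 mitochondrially encoded, and 0 of them passed it through the libraries of 1 group only. After Benjamini-Hochberg adjustment over all genes limma called 0 members, the smallest adjusted p being 0.692, and it called 0% of all genes. At an unadjusted p under 0.05 there were 13 lower members (12.4%), where 4.04% of all genes tested were lower, and 0 higher members, where 3.13% of all genes were higher. The difference lay below 0 for 98 of the 105 members, against 53% of all genes. The groups did not overlap, with atorvastatin lower, in 29 members (27.6%), against 8.85% of all genes, and did not overlap the other way in 0 members, against 5.53% of all genes. The log2(FPKM + 1) scale understates differences of genes with low values.

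The size of the difference was small for the nuclear genes, and its interval was wider for the mitochondrial ones. The median difference was -0.20 over the 92 nuclear members and -0.31 over the 13 mitochondrially encoded members, beside -0.02 over all genes tested. The 95% interval lay within 1 log2 unit of 0 for 91 nuclear members, but for only 7 of the 13 mitochondrially encoded ones. The median standard error was 0.15 for the nuclear members and 0.28 for the mitochondrially encoded members. These are limma's moderated standard errors, which draw on genes of similar level as well as on the gene's own spread. Vehicle library 3 was the highest of the 6 libraries for 83 of the 105 members (79.0%), among them all 13 mitochondrially encoded genes, whereas it was the highest for 27.2% of all genes. Without that library the medians were -0.11 for the nuclear and -0.10 for the mitochondrially encoded members, beside -0.03 for all genes. Of the 105 members, 6 were then lower at an unadjusted p under 0.05, against 4.46% of all genes. The difference then lay below 0 for 77 of the 92 nuclear and 12 of the 13 mitochondrially encoded members, against 55.8% of all genes. In bulk RNA, fewer cells of a type and less RNA per cell cannot be told apart.

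Scaling and single libraries moved the count of 13 more than they moved the direction. With every library scaled to an equal sum of FPKM, 1 of the 105 members, Ndufa11, was lower at an unadjusted p under 0.05. Of all genes 1.07% were then lower and 2.27% higher, so under this scaling the members' share was no larger than that of all genes. With median-of-ratios scaling the count was 8, where 3.2% of all genes were lower and 4.61% higher, and with equal sums that leave out immunoglobulin and mt- genes it was 7, where 2.25% were lower and 5.63% higher. With the replicate number as a block the count was 8, against 3.55% of all genes. Leaving out atorvastatin library 1, 2 or 3 gave counts of 8, 8 and 5, against 2.64%, 2.77% and 2.38% of all genes. Leaving out vehicle library 1 or 2 gave counts of 10 and 17, against 2.93% and 4.72%. After adjustment limma called 0 members in each of these fits, and 0.00736% of all genes without atorvastatin library 1 and 0.0221% without atorvastatin library 3. With equal sums the median differences were -0.15 for nuclear and -0.24 for mitochondrially encoded members, while that of all genes was 0.04.

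**Figure D1:**
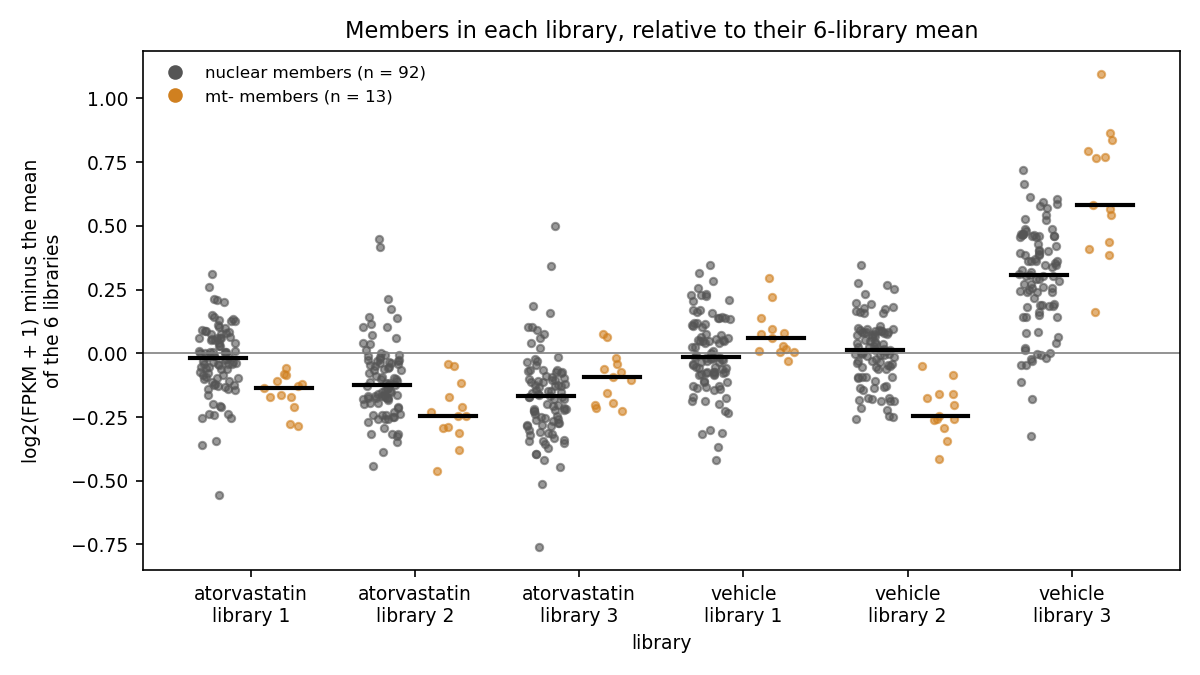
Each point is 1 of 92 nuclear (grey) or 13 mitochondrially encoded (orange) genes in 1 library, as its log2(FPKM + 1) minus its mean over the 6 libraries, and black bars are medians. The points of vehicle library 3 lie mostly above 0, and those of the mitochondrially encoded genes there lie highest, all above 0.

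Several marker lists lay mostly on 1 side of 0, though no marker passed the test after adjustment over all genes. All 6 tested B cell markers were lower with atorvastatin, their summed level being 261 to 275 FPKM with atorvastatin and 320 to 431 FPKM with vehicle. All 5 tested neutrophil markers were lower, with sums of 18.3 to 25.0 FPKM with atorvastatin and 25.2 to 32.9 FPKM with vehicle. At an unadjusted p under 0.05 in limma 3 of them and 3 of the B cell markers were lower, beside 4.04% of all genes. Of 7 T cell markers 6 were lower, all 4 erythroid markers were lower, and 4 of 5 endothelial markers were higher. The 6 fibroblast and the 6 plasma cell markers were split, with 4 of each higher. Their median differences were 0.10 for fibroblast and 0.09 for plasma cell markers, or 0.16 and -0.14 without vehicle library 3. All 9 tested epithelial markers were lower too, and all 8 macrophage markers were higher, with sums of 214 to 232 FPKM with atorvastatin and 129 to 278 FPKM with vehicle. The 8 smooth muscle markers were all higher and summed to 806 to 1132 FPKM with atorvastatin and 635 to 1202 FPKM with vehicle. The median difference was 0.25 for macrophage and 0.18 for smooth muscle markers, or 0.47 and 0.49 without vehicle library 3. Vehicle library 3 had the highest macrophage and smooth muscle sums of its group, 278 and 1202 FPKM, and the lowest B cell sum, 320 FPKM. Of 12 genes that tissue dissociation is known to induce, such as Fos and Jun, 11 were higher, with sums of 6995 to 9582 FPKM with atorvastatin and 6332 to 6599 FPKM with vehicle. The part of these cell types and of dissociation in the differences reported here was not tested.

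The mitochondrially encoded genes were by far the more abundant. Their summed level was 15306 ± 628 FPKM with atorvastatin and 19539 ± 5795 FPKM with vehicle (SD, n = 3 each), or 3.92% ± 0.64 of all FPKM with atorvastatin and 4.71% ± 1.32 with vehicle. The 92 tested nuclear members together had 2052 ± 108 FPKM with atorvastatin and 2405 ± 309 FPKM with vehicle (SD, n = 3 each), or 0.522% ± 0.061 of all FPKM with atorvastatin and 0.581% ± 0.065 with vehicle. In each library the atorvastatin sums of the mitochondrially encoded genes were 15412, 14632 and 15874 FPKM, and the vehicle sums were 17696, 14889 and 26032 FPKM. Vehicle library 2 thus lay among the atorvastatin libraries, and the higher vehicle mean came mostly from library 3.

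Some neighbouring mitochondrial genes share bases, and a fragment from the shared stretch cannot be given to either gene alone. These stretches are shown because they belong to both genes, and how fragments from them entered the deposited values is unknown. mt-Atp8 and mt-Atp6, subunits of the ATP synthase, are read from 1 transcript in different frames and overlap by 43 bases, at MT:7927-7969 of mm10, plus strand, which is 21.1% of mt-Atp8. mt-Nd4l and mt-Nd4, subunits of complex I, overlap by 7 bases, at MT:10167-10173. In capitals are the shared bases, which open with the start codon of the second gene, and in lower case the 10 bases on each side.
mt-Atp8 and mt-Atp6, MT:7917-7979: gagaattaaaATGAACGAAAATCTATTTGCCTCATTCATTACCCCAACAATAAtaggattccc
mt-Nd4l and mt-Nd4, MT:10157-10183: acctactacaATGCTAAaaattattct

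A further overlap, of 14 bases between mt-Nd5 and mt-Nd6, lies on opposite strands, and the sources used here do not say whether the authors' counting used strand. For 10 of the 13 mitochondrially encoded genes the annotation also holds a near-identical pseudogene (at least 90% identity over at least 50% of the length), so reads may have been split with those copies.

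mt-Co1, the catalytic subunit of complex IV, was the most abundant member. It had 3444, 3425 and 3621 FPKM in the atorvastatin libraries and 4064, 3634 and 5225 FPKM in the vehicle libraries. It was the only mitochondrially encoded gene whose groups did not overlap, though atorvastatin library 3 and vehicle library 2 lay close together. Its difference was -0.28 (SE 0.29, n = 3 each), with an unadjusted p of 0.364 in limma and an adjusted p of 0.822. Its partners mt-Co2 and mt-Co3 had differences of -0.42 and -0.37. Without vehicle library 3 the differences were -0.14 for mt-Co1, -0.15 for mt-Co2 and -0.06 for mt-Co3.

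The largest differences among the mitochondrially encoded genes were of subunits of complex I. mt-Nd3 had 369, 310 and 365 FPKM with atorvastatin and 497, 320 and 913 FPKM with vehicle. Its difference of -0.60 (SE 0.37) had an unadjusted p of 0.154 in limma, an adjusted p of 0.726, and became -0.20 without vehicle library 3. mt-Nd6, the only member transcribed from the other strand, had 376, 352 and 411 FPKM with atorvastatin and 563, 386 and 779 FPKM with vehicle, a difference of -0.54 (SE 0.28) with an unadjusted p of 0.0903 and an adjusted p of 0.696, which became -0.30 without vehicle library 3. Both genes overlapped between the groups through vehicle library 2 alone. At the other end, mt-Nd4l had 693, 716 and 769 FPKM with atorvastatin and 721, 601 and 962 FPKM with vehicle. Its difference was -0.04, and 0.14 without vehicle library 3. The remaining complex I genes mt-Nd1, mt-Nd2, mt-Nd4 and mt-Nd5 had differences of -0.31, -0.25, -0.30 and -0.17, and mt-Cytb, the cytochrome b of complex III, of -0.17. Without vehicle library 3 these were -0.10, -0.03, -0.10 and -0.13, and -0.01 for mt-Cytb.

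mt-Atp6 and mt-Atp8, both in the membrane part of the ATP synthase, were close to each other in their differences, at -0.39 and -0.35. mt-Atp6 had 440, 375 and 408 FPKM with atorvastatin and 469, 390 and 835 FPKM with vehicle. mt-Atp8 had 1355, 1287 and 1418 FPKM with atorvastatin and 1531, 1203 and 2783 FPKM with vehicle. Without vehicle library 3 the differences were -0.07 for mt-Atp6 and -0.00 for mt-Atp8. The ribosomal RNAs of the organelle, which are not among the members, showed the same high library: mt-Rnr2 had 603, 546 and 631 FPKM with atorvastatin and 731, 569 and 1171 FPKM with vehicle. Of the 21 mitochondrial tRNAs that passed the filter, 17 were highest in vehicle library 3.

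**Figure D2:**
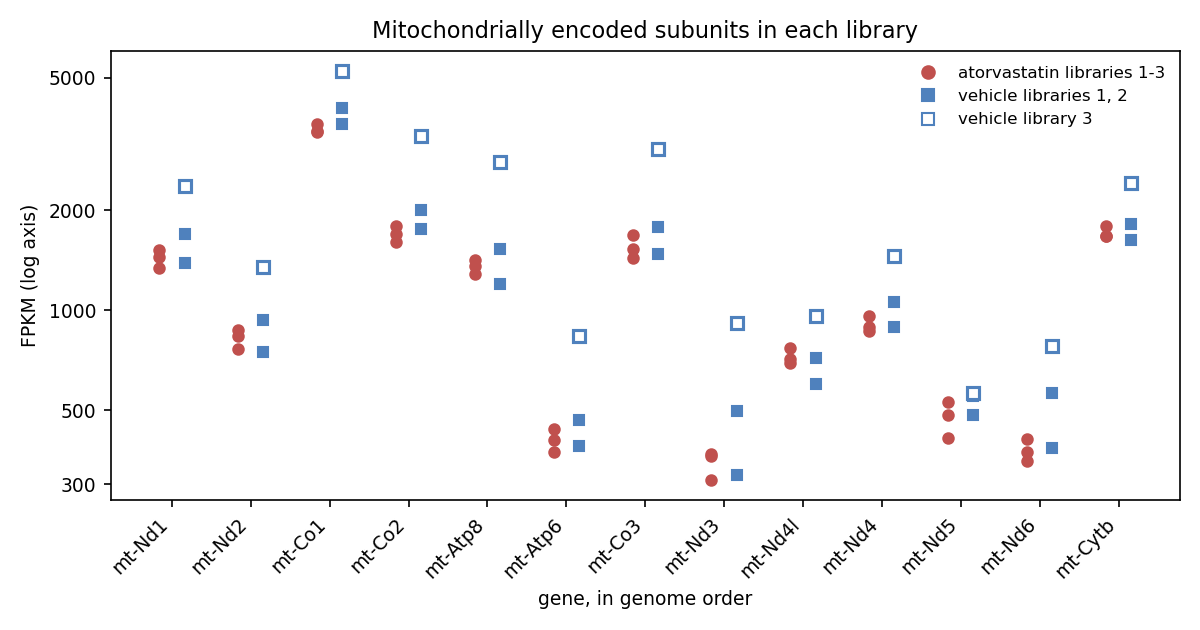
FPKM of the 13 mitochondrially encoded genes in genome order, on a log axis, with atorvastatin libraries as red circles, vehicle libraries 1 and 2 as filled blue squares and vehicle library 3 as an open square. The open square is the highest point of all 13 genes, while the lower filled square of each gene lies among the red circles or close to them.

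With all libraries included, the balance between the genomes differed between the groups by less than the libraries of 1 group differed among themselves. The median log2 level of the 13 mitochondrially encoded genes exceeded that of the 75 nuclear structural subunits by 5.37, 5.37 and 5.70 in the atorvastatin libraries and by 5.55, 5.31 and 5.64 in the vehicle libraries. The means were 5.48 ± 0.19 with atorvastatin and 5.50 ± 0.17 with vehicle (SD, n = 3 each), a difference of -0.02, or 0.05 without vehicle library 3. Within complex I the excess was 5.57, 5.69 and 5.85 with atorvastatin and 5.57, 5.25 and 5.82 with vehicle. In complex IV it was 5.60, 5.51 and 5.84 with atorvastatin and 5.74, 5.68 and 6.02 with vehicle. In complex V it was 4.73, 4.84 and 5.02 with atorvastatin and 5.02, 4.74 and 5.46 with vehicle. The groups overlapped in each of these, and in complex III, where only mt-Cytb stands for the organelle, the excess was 5.67 to 5.92 with atorvastatin and 5.62 to 5.87 with vehicle. The differences of the group means were 0.15 in complex I, 0.08 in III, -0.16 in IV and -0.21 in V. Without vehicle library 3 they were 0.29, 0.16, -0.06 and -0.02.

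Most of the nuclear genes with a small p were subunits of complex I. Of the 36 nuclear subunits of complex I, 34 were below 0, 13 did not overlap between the groups, and 8 were lower at an unadjusted p under 0.05, beside 53%, 8.85% and 4.04% of all genes. The median difference of the 36 was -0.20, and -0.06 without vehicle library 3. Ndufb5, Ndufa11, Ndufs4 and Ndufc2, accessory subunits that surround the catalytic core, and Ndufs8, a core subunit that carries iron-sulfur clusters, had the 5 smallest p among all members.

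Ndufa11 (ENSMUSG00000002379, chromosome 17, 56717767 to 56722141 of mm10) sits in the membrane arm where complex I meets complex III in supercomplexes. It had 10.8, 11.1 and 9.75 FPKM with atorvastatin and 15.5, 13.8 and 20.2 FPKM with vehicle. Every atorvastatin library lay below every vehicle library. The difference was -0.59 (SE 0.15, n = 3 each), with an unadjusted p of 0.00705 in limma and an adjusted p of 0.692, and it was -0.44 without vehicle library 3. Ndufa11 was under an unadjusted p of 0.05 in all 17 alternative settings tried.

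Ndufb5, in the membrane arm, had 3.44, 3.01 and 3.87 FPKM with atorvastatin and 4.90, 4.85 and 5.93 FPKM with vehicle. Its difference was -0.49 (SE 0.13), with an unadjusted p of 0.00647 in limma and an adjusted p of 0.692. Ndufs4, an accessory subunit of the matrix arm whose loss in mice causes a Leigh-like encephalopathy, had 6.36, 5.68 and 5.35 FPKM with atorvastatin and 8.25, 7.38 and 8.99 FPKM with vehicle, a difference of -0.44 (SE 0.12). Ndufc2 had 18.6, 17.8 and 15.6 FPKM with atorvastatin and 21.9, 21.7 and 28.3 FPKM with vehicle, and a difference of -0.44 (SE 0.14). The groups did not overlap for any of these genes, and with vehicle library 3 left out the differences were -0.41 for Ndufb5, -0.38 for Ndufs4 and -0.32 for Ndufc2. Over the 17 alternative settings the unadjusted p stayed under 0.05 in 15 for Ndufb5, 16 for Ndufs4 and 15 for Ndufc2. Ndufb5, with a mean of 4.33 FPKM, was not tested in the alternative that kept genes with a mean of at least 5 FPKM.

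Ndufs8 had 17.6, 18.7 and 17.5 FPKM with atorvastatin and 20.6, 23.4 and 26.7 FPKM with vehicle (difference -0.37). Ndufb3 had 15.9, 14.9 and 16.8 FPKM with atorvastatin and 21.7, 18.1 and 21.4 FPKM with vehicle (difference -0.34). Ndufa3 had 16.7, 17.6 and 13.8 FPKM with atorvastatin and 18.2, 20.9 and 25.8 FPKM with vehicle (difference -0.40). All 3 are subunits of complex I, and in none did the groups overlap, though they were named for their small p. Without vehicle library 3, 6 of the 105 members tested stayed under an unadjusted p of 0.05 in limma, where 4.46% of all genes were lower. Those 6 were all of complex I, namely Ndufa11, Ndufb5, Ndufs4, Ndufc2, Ndufs8 and Ndufb3, chosen here after their values were seen. A count of 6 is near the share of all genes, so it is not read as a trait of complex I. That complex also holds 36 of the 75 nuclear structural subunits. Without vehicle library 3 the median of these 36 was -0.06, against -0.20 to -0.11 for the nuclear subunits of the other complexes.

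Several differences of the complex I subunits were near 0, and 2 of the 36 nuclear subunits lay above it. Ndufv1, the core subunit that binds NADH and FMN, and the accessory subunits Ndufa10, Ndufb8 and Ndufv3 differed by 0.01 log2 units or less, and Ndufb8 and Ndufv3 were at 0.12 and 0.11 without vehicle library 3. The 2 most abundant subunits, Ndufb11 and Ndufa1, had differences of -0.30 and -0.21. Ndufb11 had 51.8, 50.8 and 43.6 FPKM with atorvastatin and 53.1, 54.2 and 75.1 FPKM with vehicle, and Ndufa1 had 45.8, 53.4 and 34.3 FPKM with atorvastatin and 43.6, 45.9 and 65.5 FPKM with vehicle. The groups lay just apart for Ndufb11 and overlapped for Ndufa1, and without vehicle library 3 the differences were -0.14 and -0.03. Levels ranged from 1.85 FPKM for Ndufab1, the acyl carrier protein, to 54.8 FPKM for Ndufb11, averaged over the 6 libraries, a ratio of 29.6 among subunits of 1 complex.

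**Figure D3:**
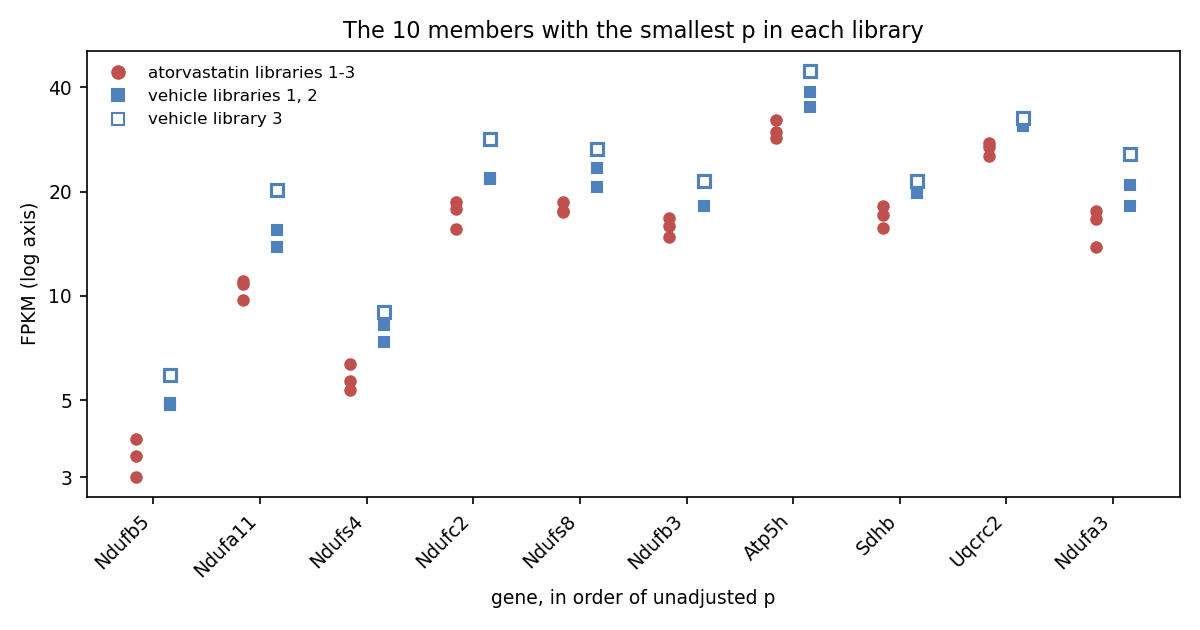
FPKM on a log axis of the 10 members with the smallest unadjusted p, in order of p, with atorvastatin libraries as red circles, vehicle libraries 1 and 2 as filled blue squares and vehicle library 3 as an open square. For all 10 genes the red circles lie below the squares, and 7 of the genes encode subunits of complex I.

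Complex II, which also works in the tricarboxylic acid cycle, is encoded by nuclear genes alone. The median log2 level of its 4 subunits was 4.6, 4.47 and 4.51 with atorvastatin and 4.74, 4.77 and 4.76 with vehicle, and the groups did not overlap. The median difference was -0.21, and -0.20 without vehicle library 3, although that library was the highest for 3 of the 4 subunits. Sdhb, the iron-sulfur subunit, had 18.2, 15.7 and 17.1 FPKM with atorvastatin and 20.7, 19.9 and 21.5 FPKM with vehicle (difference -0.27, SE 0.11, unadjusted p = 0.0399 in limma, adjusted p = 0.692). Sdha, which binds FAD, had 29.6, 28.5 and 27.8 FPKM with atorvastatin and 31.8, 34.6 and 31.5 FPKM with vehicle. Sdhd, a membrane anchor, had 33.7, 29.2 and 29.8 FPKM with atorvastatin and 35.4, 35.4 and 39.2 FPKM with vehicle. The groups did not overlap for these 3 of the 4 subunits, against 8.85% of all genes with atorvastatin lower. They did for Sdhc, the second anchor, with 11.8, 11.2 and 12.2 FPKM with atorvastatin and 11.8, 12.5 and 15.9 FPKM with vehicle, and its difference of -0.17 was -0.05 without vehicle library 3.

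In complex III all 8 nuclear subunits were below 0, with a median of -0.26, or -0.17 without vehicle library 3. Uqcrc2, a core protein of the matrix side, had 25.4, 26.9 and 27.7 FPKM with atorvastatin and 32.9, 31.1 and 32.7 FPKM with vehicle. The vehicle libraries lay close together and all higher, and the difference was -0.26 (SE 0.10, unadjusted p = 0.0400 in limma, adjusted p = 0.692). Uqcrfs1, the Rieske iron-sulfur protein, had 35.8, 38.1 and 34.3 FPKM with atorvastatin and 44.4, 38.7 and 47.6 FPKM with vehicle. The most abundant subunits, Uqcrh and Uqcr10, had differences of -0.28 and -0.15, or -0.06 and -0.02 without vehicle library 3, and both overlapped between the groups. Cytochrome c1, encoded by Cyc1 and outside the symbol rule, had 23.1, 22.1 and 21.2 FPKM with atorvastatin and 22.6, 24.8 and 24.1 FPKM with vehicle.

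The 11 nuclear structural subunits of complex IV were all below 0 and had the lowest median of the nuclear groups, -0.34, but all 11 were highest in vehicle library 3, and the median without it was -0.19. Cox4i1, the main isoform of subunit 4, had 60.5, 90.2 and 83.5 FPKM with atorvastatin and 92.7, 105 and 115 FPKM with vehicle. The groups did not overlap, but atorvastatin library 1 lay well below the other 2, and the difference of -0.43 (SE 0.19) had an unadjusted p of 0.0574 in limma and an adjusted p of 0.696. Cox6b1 had 75.3, 75.2 and 67.3 FPKM with atorvastatin and 83.8, 85.4 and 114 FPKM with vehicle (difference -0.36), and Cox5a had 14.4, 11.9 and 12.9 FPKM with atorvastatin and 14.6, 15.6 and 23.3 FPKM with vehicle (difference -0.40). Neither overlapped. Cox5b, the subunit named beside Cox5a, did, with 27.3, 23.1 and 27.9 FPKM with atorvastatin and 25.1, 26.5 and 36.7 FPKM with vehicle. The 2 most abundant, Cox6a1 and Cox8a, had differences of -0.08 and -0.13, or -0.01 and 0.04 without vehicle library 3. Cox7b, at -0.38, was the only subunit of complex IV under an unadjusted p of 0.05. Without vehicle library 3 the differences were -0.22 for Cox6b1, -0.20 for Cox5a and -0.24 for Cox7b. Ndufa4, once counted to complex I and since assigned to complex IV, had 28.8, 34.1 and 17.8 FPKM with atorvastatin and 36.4, 30.8 and 43.8 FPKM with vehicle.

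Isoforms that stand in for the common subunits in particular tissues were low. Cox7a1, of heart and skeletal muscle, had 2.64, 1.16 and 2.72 FPKM with atorvastatin and 1.38, 1.75 and 2.34 FPKM with vehicle, while Cox7a2, the common form, had 35.9, 28.6 and 28.6 FPKM with atorvastatin and 35.5, 31.2 and 50.5 FPKM with vehicle. Cox4i2, the isoform of lung and of low oxygen, had 3.21, 2.54 and 3.26 FPKM with atorvastatin and 1.97, 2.40 and 5.07 FPKM with vehicle. Its difference of 0.02 was 0.33 without vehicle library 3. Ndufa4l2, which low oxygen induces, had 3.80, 2.47 and 3.61 FPKM with atorvastatin and 4.26, 3.23 and 2.82 FPKM with vehicle. Cox6b2, known from testis, had 2.77, 2.58 and 3.71 FPKM with atorvastatin and 3.28, 4.4 and 4.39 FPKM with vehicle. In none of these isoforms were the groups apart. Cox7a2l, which holds supercomplexes together, had 52.7, 73.3 and 71.8 FPKM with atorvastatin and 78.7, 57.4 and 50.3 FPKM with vehicle, a difference of 0.10 that was -0.04 without vehicle library 3.

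The 6 members below the filter were also such isoforms, or barely measured. Cox8b, of heart and skeletal muscle, had 0.95, 0.65 and 0.59 FPKM with atorvastatin and 0.70, 1.13 and 1.30 FPKM with vehicle (two-sided exact permutation p = 0.2, where 0.1 is the smallest that 3 against 3 libraries allow). Cox6a2, the muscle form of subunit 6a, had 0, 0.49 and 0.16 FPKM with atorvastatin and 0.24, 0.41 and 0.61 FPKM with vehicle (exact permutation p = 0.4). Sdhaf3, an assembly factor of complex II, had 0.42, 0.46 and 0.56 FPKM with atorvastatin and 0.46, 0.48 and 0.37 FPKM with vehicle (exact permutation p = 0.6). Cox7b2, Cox8c and the second ID of Atp5o were listed at 0 in all 6 libraries.

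All 16 nuclear subunits of the ATP synthase were below 0, with a median of -0.21, or -0.11 without vehicle library 3. The catalytic head showed small and even differences. Atp5b, the catalytic beta subunit, had 83.5, 84.2 and 83.4 FPKM with atorvastatin and 91.1, 92.9 and 93.3 FPKM with vehicle. Atp5a1, the alpha subunit, had 98.5, 90 and 91.8 FPKM with atorvastatin and 102.6, 103.1 and 103.7 FPKM with vehicle. For both the groups did not overlap, vehicle library 3 lay with the other vehicle libraries, and the difference was -0.14 on the log2(FPKM + 1) scale. The unadjusted p in limma was 0.252 for Atp5b and 0.271 for Atp5a1, with moderated standard errors of 0.11 and 0.12. Atp5b itself varied little, with an SD of 0.42 FPKM with atorvastatin and 1.18 FPKM with vehicle.

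The stalk and membrane part had a median of -0.32 over 11 subunits, against -0.14 over the 5 of the head, and the medians were -0.13 and -0.10 without vehicle library 3. Atp5h, subunit d of the peripheral stalk, had 32.2, 29.9 and 28.6 FPKM with atorvastatin and 38.9, 35.1 and 44.6 FPKM with vehicle (difference -0.37, SE 0.13, unadjusted p = 0.0254 in limma, adjusted p = 0.692). The annotation holds 5 near-identical genes of Atp5h and 13 of Atp5l, subunit g, so their values are uncertain where reads were split with those copies. Atp5g1, Atp5g2 and Atp5g3 encode the same mature subunit c of the rotor. Atp5g2 had 38.6, 30.0 and 28.3 FPKM with atorvastatin and 41.6, 35.8 and 43.5 FPKM with vehicle, and Atp5g3 had 26.0, 23.7 and 22.8 FPKM with atorvastatin and 24.4, 23.5 and 33.6 FPKM with vehicle. Atp5g1 was the least abundant subunit of the complex, with 6.42, 6.44 and 4.69 FPKM with atorvastatin and 5.42, 6.92 and 5.88 FPKM with vehicle. The differences of Atp5g1, Atp5g2 and Atp5g3 were -0.05, -0.32 and -0.15, that of Atp5g3 was 0.01 without vehicle library 3, and in none of the 3 were the groups apart.

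**Figure D4:**
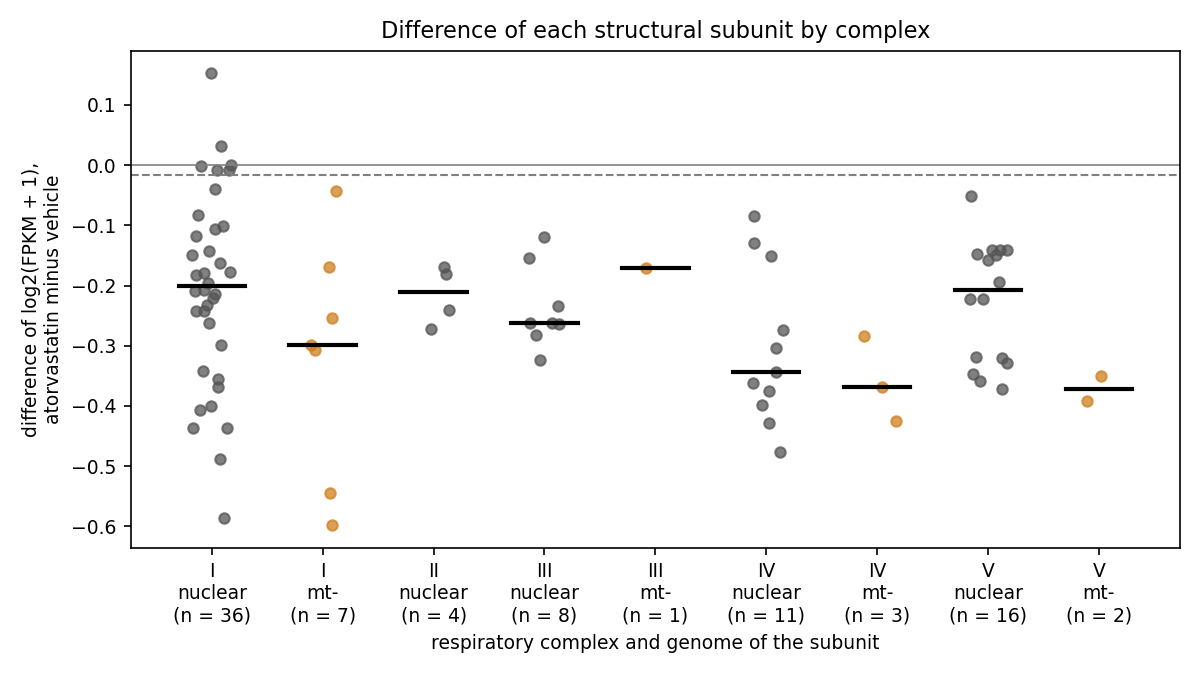
Each point is the difference in log2(FPKM + 1), atorvastatin minus vehicle, of 1 structural subunit, by complex and by the genome that encodes it. Black bars are medians, and the dashed line is the median of all genes tested, -0.02. The medians of all groups lie below that line.

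Read by complex, the mitochondrially encoded medians were -0.30 in complex I, -0.17 in complex III, -0.37 in complex IV and -0.37 in complex V. The nuclear medians were -0.20, -0.26, -0.34 and -0.21 for the same complexes, and -0.21 for complex II. Without vehicle library 3 the mitochondrially encoded medians were -0.10, -0.01, -0.14 and -0.04, and the nuclear ones were -0.06, -0.17, -0.19 and -0.11, with -0.20 for complex II. The order of the complexes thus changed with that library.

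**Figure D5:**
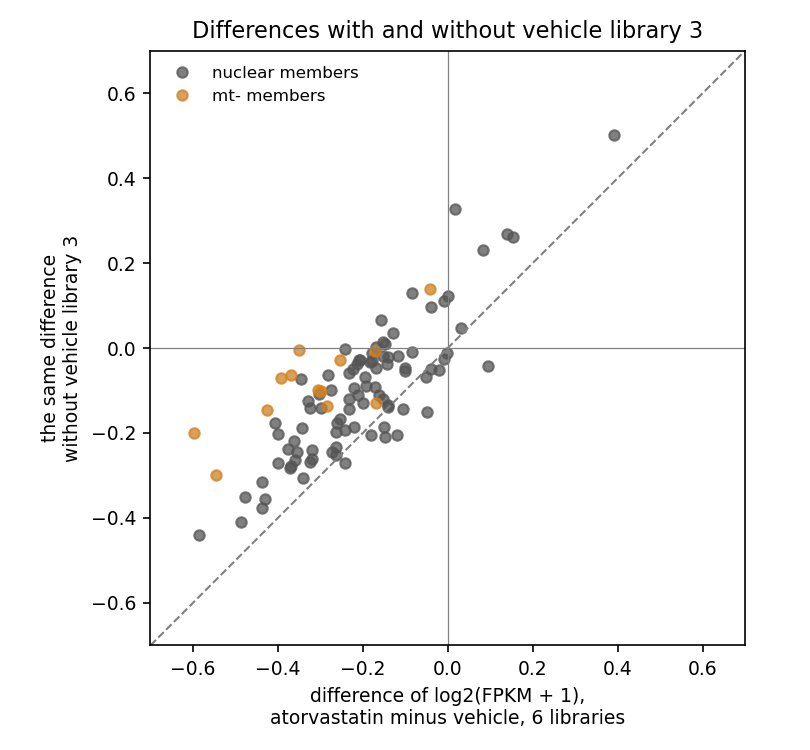
The difference in log2(FPKM + 1), atorvastatin minus vehicle, of each of the 92 nuclear (grey) and 13 mitochondrially encoded (orange) genes, from all 6 libraries on the x axis and without vehicle library 3 on the y axis. Most points lie above the dashed line of equality, with the orange ones among the farthest from it, and most stay below 0 on both axes.

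The excess in vehicle library 3 was smallest in the genes of longest exonic length. That length joins all annotated exons of a gene and can far exceed its transcripts. Atp5l has 6443 nt of exons, while its longest protein-coding transcript has 544 nt. On the log2 scale vehicle library 3 exceeded the mean of the other vehicle libraries by a median of 0.68 for the 13 mitochondrially encoded genes and 0.32 for the 92 nuclear members, whereas for the 11487 protein-coding genes of the nuclear genome tested the median was -0.02. Among nuclear members it was 0.42 for the 21 with an exonic length under 1000 nt, 0.30 for the 36 of 1000 to 2000 nt, 0.33 for the 23 of 2000 to 4000 nt and 0.06 for the 12 of 4000 nt and over. Over all those protein-coding genes the same length classes had medians of 0.26, 0.19, 0.05 and -0.10. Pearson's r with log10 length was -0.37 across the nuclear members and -0.70 across the 13 mitochondrially encoded genes, which is a description across genes of the same libraries. With the trend on length removed in each library, 8 members were lower at an unadjusted p under 0.05, against 3.54% of all genes, and the median difference was -0.12 for nuclear and -0.19 for mitochondrially encoded members.

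Of the tested nuclear members, 13 are not subunits but build or accompany the complexes, and 10 of these were below 0, with a median of -0.15, or -0.05 without vehicle library 3. None was under an unadjusted p of 0.05. Ndufaf4, a chaperone of early complex I assembly, had the largest positive difference of all members, 0.39, with 0.82, 2.18 and 2.30 FPKM with atorvastatin and 0.81, 0.97 and 1.37 FPKM with vehicle. Its groups overlapped through atorvastatin library 1 (SE 0.25, unadjusted p = 0.163 in limma, adjusted p = 0.733).

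Outside the symbol rule, a list of 32 tested assembly factors had 24 below 0 and a median of -0.09, with 4 lower and 0 higher at an unadjusted p under 0.05, beside 53% of all genes below 0, 4.04% lower and 3.13% higher. Timmdc1, which anchors early membrane arm intermediates of complex I, had 4.13, 3.59 and 4.78 FPKM with atorvastatin and 5.61, 5.79 and 6.52 FPKM with vehicle, a difference of -0.44 (unadjusted p = 0.0104 in limma, adjusted p = 0.692). Acad9, another assembly factor of complex I, had 1.70, 1.77 and 1.95 FPKM with atorvastatin and 2.36, 2.60 and 2.38 FPKM with vehicle, a difference of -0.30. The other 2 were Cox17, a copper chaperone, and Coa3, both of complex IV assembly, with -0.47 and -0.40, or -0.29 for each without vehicle library 3. Among 5 tested electron carriers and remaining subunits, Cycs, which encodes cytochrome c, had 18.01, 16.66 and 16.71 FPKM with atorvastatin and 23.5, 18.5 and 31.9 FPKM with vehicle, a difference of -0.47 (unadjusted p = 0.0489 in limma) and of -0.27 without vehicle library 3.

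Of 23 tested genes of mitochondrial DNA transcription, replication and RNA handling, 18 were below 0, against 53% of all genes, with a median of -0.10. Tfam alone was lower at an unadjusted p under 0.05 in limma, beside 4.04% of all genes. Tfam, which packages the mitochondrial genome and starts its transcription, had 8.10, 7.54 and 8.46 FPKM with atorvastatin and 10.5, 10.1 and 9.21 FPKM with vehicle. Vehicle library 3 was the lowest of the vehicle libraries here, and the difference was -0.28 (SE 0.10, unadjusted p = 0.0343 in limma, adjusted p = 0.692) and -0.33 without it. Polrmt, the mitochondrial RNA polymerase, had 3.00, 3.35 and 3.20 FPKM with atorvastatin and 3.45, 5.09 and 2.55 FPKM with vehicle.

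The 8 tested regulators of the pathway were evenly split, 4 below and 4 above 0, with a median of 0.02. Nrf1 and Gabpa, transcription factors of many nuclear respiratory genes, had differences of -0.01 and -0.10, that of Nrf1 being -0.12 without vehicle library 3. Pprc1, a coactivator related to PGC-1 alpha, had 9.32, 12.5 and 19.8 FPKM with atorvastatin and 7.97, 8.11 and 10.03 FPKM with vehicle, a difference of 0.56 (SE 0.25, unadjusted p = 0.0648 in limma, adjusted p = 0.696). Ppargc1a itself was below the filter, at 0.26, 0.28 and 0.40 FPKM with atorvastatin and 0.24, 0.35 and 0.18 FPKM with vehicle.

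Promoters were read for 3 motifs on both strands, within 250 bases before to 50 bases after each start in RefSeq (build GRCm38.p6), which held 78 of the 97 distinct nuclear members. The NRF1 motif, the palindrome in capitals in the first promoter printed here, was in 7 of the 78 (8.97%), against 2.30% of 9080 tested protein-coding genes and 0.971% of 32851 promoters. The GABPA motif CCGGAAGT was in 5 (6.41%), against 9.27% and 3.89%, and the YY1 motif AAGATGGCG in 8 (10.3%), against 3.69% and 1.4%. No motif's letters contain those of another, a match is no evidence of binding, and 20 members held at least 1 of them. Of the members with an NRF1 match, Ndufa11 had the largest negative difference of all nuclear members (-0.59), Cox6a1 one of -0.08, and Ndufaf4 the largest positive one (0.39). Their promoters are printed with that of Uqcrh, the most abundant subunit of complex III, which held a GABPA match on the reverse strand. Only bases upstream of the start and outside annotated exons are printed, at most 120, 5′ to 3′ on the strand of the gene, with the motif in capitals.
Ndufa11, chr17:56717686-56717761, plus strand: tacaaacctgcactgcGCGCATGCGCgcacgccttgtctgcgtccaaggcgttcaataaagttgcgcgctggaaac
Cox6a1, chr5:115349010-115349129, minus strand: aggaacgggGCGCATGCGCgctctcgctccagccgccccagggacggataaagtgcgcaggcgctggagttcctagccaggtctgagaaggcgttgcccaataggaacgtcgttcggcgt
Ndufaf4, chr4:24897963-24898082, plus strand: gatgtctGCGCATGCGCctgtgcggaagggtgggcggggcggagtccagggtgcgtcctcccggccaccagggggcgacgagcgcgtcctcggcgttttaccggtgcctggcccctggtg
Uqcrh, chr4:116075072-116075191, minus strand: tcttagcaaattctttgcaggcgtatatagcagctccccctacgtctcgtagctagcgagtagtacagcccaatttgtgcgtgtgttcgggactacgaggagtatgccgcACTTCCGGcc
The motif began 60 bases before the start in Ndufa11, 162 before it in Cox6a1, 113 before it in Ndufaf4 and 11 before it in Uqcrh.

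Enzymes that feed the chain and carriers beside it were compared as well. Of 14 enzymes of the tricarboxylic acid cycle, 10 were below 0, against 53% of all genes, with a median of -0.16. At an unadjusted p under 0.05 in limma 2 were lower, beside 4.04% of all genes. Fh1, fumarase, had 7.59, 7.78 and 7.84 FPKM with atorvastatin and 10.7, 9.29 and 9.19 FPKM with vehicle, a difference of -0.29 (SE 0.10, unadjusted p = 0.0266 in limma, adjusted p = 0.692). The other was Sucla2, a subunit of succinyl-CoA ligase, at -0.33, or -0.21 without vehicle library 3. All 7 tested carriers of the mitochondrial membranes were below 0, with a median of -0.07, or -0.03 without vehicle library 3, and Vdac3, a pore of the outer membrane, was the only one under an unadjusted p of 0.05, at -0.35. Genes for ribosomal proteins were also low. The 87 tested cytosolic ones, with a median exonic length of 1734 nt against 3794 nt for all genes, had a median of -0.36, or -0.27 without vehicle library 3, with 24 (27.6%) lower at an unadjusted p under 0.05, and the 78 mitochondrial ones had a median of -0.17, or -0.11 without it, with 11 (14.1%) lower. The members' share of 12.4% includes the 13 mitochondrially encoded genes, of which 0 were lower under that threshold. Over the 92 nuclear members alone the share was 14.1%, beside 4.04% of all genes, and no difference between the lists was tested.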

How the data were processed

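RNA-seq libraries of colonic lamina propria cells, 3 with atorvastatin and 3 with vehicle, were used. FastQC 0.11.2, Bowtie and build mm10 are named in the submitters' processing notes. The authors deposited FPKM per gene with 2 decimals, fragments scaled by gene length and library. The sources used here give no quantifier, annotation or strand setting. Fragment counts could not be recovered, so the depth is unknown and no counting interval is given. Symbols, types and exonic lengths came from GENCODE M21, which gives 51957 of the 55401 gene IDs the same start and end, while 260 IDs had no symbol.

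Values were taken as log2(FPKM + 1) without further scaling. The 13590 genes that reached 1 FPKM in 3 or more libraries were fitted with limma 3.58.1 in R 4.3.3 (limma-trend, Benjamini-Hochberg adjustment over all genes tested, false discovery rate 0.05), and the members' values were read from that fit. The scripts were tested on simulated data. Members, lists, tests and alternatives were chosen with earlier results of these data known. Named members were all mt- genes, the 2 most abundant nuclear subunits per complex, the 10 with the smallest p, the isoform families and Sdha to Sdhd. Any others were named after their values were seen. Members were compared with all annotated transcripts by BLAST 2.17.0. The 17 alternatives covered pseudocount, filter, scaling, exonic length, gene type, variance model, replicate block and leaving out each library. Results on 1 member are not reported here.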

Additional observations from a re-analysis of the deposited data

How the results depend on the processing

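The 17 alternatives called 0 members at a false discovery rate of 0.05 and moved the median difference of all genes by under 0.1. The medians stayed below 0 in all of them, between -0.26 and -0.11 for nuclear and between -0.48 and -0.10 for mitochondrially encoded members with single libraries left out. Over all genes, leaving out a library called 0 to 3 genes (1 without atorvastatin replicate 1, 3 without atorvastatin replicate 3). The count of members lower at an unadjusted p under 0.05, 13 as reported, was 8 with median-of-ratios scaling, 1 with equal sums per library (Ndufa11), 7 with equal sums without immunoglobulin and mt- genes and 8 with the length trend removed. It ranged from 5 to 17 with single libraries left out, being 8, 8 and 5 without atorvastatin replicates 1, 2 and 3 and 10, 17 and 6 without vehicle replicates 1, 2 and 3. The cause was not tested. The share of all genes lower under that threshold was 2.38% to 4.72% in the fits that leave out a library, and 1.07% with equal sums.

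With the replicate number as a block 8 members were lower, 7 of them shared with the 13. The deviations of same-numbered libraries from their group means had correlations of -0.11, 0.14 and -0.02. Differently numbered libraries had -0.16 to 0.19. With 3 libraries per group these values cannot decide whether the numbers pair the libraries.

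Of 811 values of 48 named members, 24 in 10 members had the other sign, all uncalled. Atp5g1, Ndufa4l2 and mt-Nd4l were at 0.0063, 0.0101 and 0.0261 with equal sums per library, and at 0.0114, 0.0043 and 0.0309 without immunoglobulin and mt- genes in those sums. With the length trend removed Cox6a1 was at 0.0704, Cox8a at 0.0280, Ndufa4l2 at 0.0798, Uqcr10 at 0.0048 and mt-Nd4l at 0.1269. With single libraries left out Atp5g1 ranged from -0.1189 to 0.0765, Atp5g3 from -0.2387 to 0.0104, Cox4i2 from -0.1875 to 0.3281, Cox5b from -0.2532 to 0.0142, Cox7a2l from -0.0418 to 0.2765, Cox8a from -0.2749 to 0.0362, Ndufa4l2 from -0.1503 to 0.0975 and mt-Nd4l from -0.1998 to 0.1397.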
